A study of Mus musculus with 4 samples.

Results

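The regions described here are peaks of Runx3 ChIP in mouse CD8 T cells that had no counterpart in the CUT&RUN map of the same factor and that lay away from the ends of genes. They are called distal ChIP-only peaks below. They were chosen by the peak positions in both lists, which are measured values, so their number and their lack of overlap are a description. A peak was taken when it lay on chromosomes 1 to 19 or X, shared no base with a CUT&RUN peak, and had its summit over 1 kb from both ends of every RefSeq gene in mm10. Of 13166 ChIP peaks, 2649 (20.1%, 95% interval 19.4 to 20.8) met these conditions. They made up 60.8% of the 4356 ChIP-only peaks on these chromosomes, and 35.2% of the 7528 ChIP peaks away from gene ends. The remaining 4879 peaks away from gene ends overlapped a CUT&RUN peak and are called distal shared peaks.

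The ChIP library came from 50000000 frozen CD8 T cells of 5 adult wild-type mice, isolated from spleen with beads against CD8a. The CUT&RUN library came from 150000 fresh CD8 T cells of 1 adult wild-type mouse, isolated in the same way. The same rabbit antiserum against Runx3 was used in both, at a dilution of 1 in 200. A whole cell extract of the same kind of cells was the control of the ChIP peak list, and a CUT&RUN library with normal rabbit serum was not analysed here. The ChIP list rested on 9532996 fragments and the CUT&RUN list on 14068364 fragments after duplicate removal. Each assay had 1 library, so nothing below has a replicate check and no test between assays was made. Peak lists hold no RNA levels, so the purity of the cells was not checked. Intervals are exact 95% intervals and cover counting error only. The mice, cell number, freezing, assay and peak calling settings all changed together between the lists and cannot be told apart.

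RUNX proteins bind DNA with their Runt domain, at a short core with the letters TGTGGT or a close variant, as a pair with the partner protein CBFβ. In CD8 T cells Runx3 silences Cd4 and takes part in the expression of CD8 and of cytotoxic genes. Much of its binding in T cells lies in introns and between genes, where enhancers and silencers are found. In ChIP, chromatin is sheared and pulled down with the antibody, whereas in CUT&RUN the antibody tethers a nuclease that releases the DNA next to the factor.

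No genome sequence was used here, so sequence could be read only where a peak met a RefSeq start window. Such a window holds 250 bases before to 50 bases after an annotated transcript start (GRCm38.p6). Of the 2649 distal ChIP-only peaks, 111 (4.19%, 3.46 to 5.02) overlapped a start window and 82 had their summit in one. Among distal shared peaks, 244 of 4879 (5%, 4.41 to 5.65) overlapped a start window. Since all these summits lay over 1 kb from the ends of genes, they sat at starts of transcripts inside a gene, or at starts that the gene table does not give as a gene end. The following stretches are the 6 best ranked genes in which the RUNX letters stood within 60 bp of the summit, with both before the start and in the same 110 bases. Capitals mark the match nearest the summit to TGTGGT or TGCGGT or to their reverse complements, and each stretch reads 5′ to 3′ along the strand of the transcript and ends before its start.
Alkbh2 (chr5:114128219-114128328, - strand): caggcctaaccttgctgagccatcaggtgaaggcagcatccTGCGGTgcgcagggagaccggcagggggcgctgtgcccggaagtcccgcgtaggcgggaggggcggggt
Wipf1 (chr2:73453890-73453999, - strand): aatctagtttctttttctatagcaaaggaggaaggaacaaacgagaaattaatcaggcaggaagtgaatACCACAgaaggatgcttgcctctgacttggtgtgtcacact
Atg4c (chr4:99193824-99193933, + strand): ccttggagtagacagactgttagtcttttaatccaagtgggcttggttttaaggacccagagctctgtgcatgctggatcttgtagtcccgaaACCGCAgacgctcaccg
Trp53rkb (chr2:166793657-166793766, + strand): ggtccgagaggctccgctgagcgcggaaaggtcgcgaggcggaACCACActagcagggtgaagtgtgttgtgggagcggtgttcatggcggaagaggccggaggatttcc
Atp5d (chr10:80142115-80142224, + strand): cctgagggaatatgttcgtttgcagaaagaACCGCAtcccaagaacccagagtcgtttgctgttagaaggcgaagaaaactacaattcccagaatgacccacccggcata
Otop2 (chr11:115322404-115322513, + strand): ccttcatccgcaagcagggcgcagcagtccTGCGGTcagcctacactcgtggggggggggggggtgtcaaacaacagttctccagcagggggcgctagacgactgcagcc

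Alkbh2 encodes an enzyme that repairs alkylated DNA. Its peak had a pileup of 24 fragments over the summit and ranked 1330 of 13166 by q, and the TGCGGT letters lay 8 bp from the summit. Wipf1 encodes a partner of the Wiskott-Aldrich syndrome protein in actin assembly. Its pileup was 15, with the letters 32 bp from the summit and the start 24279 bp from the nearer end of the gene. Atg4c, a protease gene of autophagy, had a pileup of 15 and Trp53rkb, a gene of a kinase of p53, of 12, with the letters 34 and 36 bp away. Atp5d, the gene of an ATP synthase subunit, and Otop2, a proton channel gene, had pileups of 11, with the letters 56 and 6 bp away. A match of this kind is a description of the letters and not a bound site.

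The next stretches are the 4 best ranked with the summit before the start and no RUNX letters on either strand of the window. Capitals mark the ETS core CCGGAA or its reverse complement where present.
Phip (chr9:82975490-82975599, - strand): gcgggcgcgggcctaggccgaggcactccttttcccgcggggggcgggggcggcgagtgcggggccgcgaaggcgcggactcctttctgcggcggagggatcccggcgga
Tmem39a (chr16:38562704-38562813, + strand): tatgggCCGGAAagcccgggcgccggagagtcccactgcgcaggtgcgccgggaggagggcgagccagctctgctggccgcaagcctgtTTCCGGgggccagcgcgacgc
Dcaf10 (chr4:45341959-45342068, + strand): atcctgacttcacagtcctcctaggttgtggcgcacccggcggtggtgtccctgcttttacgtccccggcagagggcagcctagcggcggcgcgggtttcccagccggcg
Mapk14 (chr17:28692318-28692427, + strand): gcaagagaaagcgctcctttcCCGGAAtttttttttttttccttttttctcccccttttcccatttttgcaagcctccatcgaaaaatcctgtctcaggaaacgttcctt

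Phip, which encodes a pleckstrin homology domain interacting protein, had a pileup of 23 and rank 1557, and its nearest CUT&RUN peak lay 462 kb away. Tmem39a had a pileup of 17 and 2 ETS cores in the stretch shown. Dcaf10 had a pileup of 16 and no ETS core in the stretch. Mapk14, the gene of the kinase p38α, had a pileup of 13, 1 ETS core and a CUT&RUN peak 0.765 kb away.

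Distal ChIP-only summits lay in 90 start windows, and 22 of these (24.4%, 16 to 34.6) held TGTGGT or TGCGGT on either strand. Distal shared summits lay in 198 windows, of which 86 (43.4%, 36.4 to 50.6) held the letters. Over all 32585 start windows the share was 22.3%, and over the 4727 windows whose start lay over 1 kb from every gene end it was 22.1%. The share at distal ChIP-only summits was thus near that of all windows, and its interval ended below that of distal shared summits. Within 53 bases of the summit on each side, 9 of 57 distal ChIP-only summits (15.8%, 7.48 to 27.9) and 48 of 137 distal shared summits (35%, 27.1 to 43.6) had the letters. In this count the intervals overlapped slightly. With TGTGGT alone, the shares were 15.6% (8.77 to 24.7) in the 90 windows, 26.8% (20.7 to 33.5) in the 198 windows and 16.6% in all windows, and the first 2 intervals overlapped. The letters searched were chosen after the windows were found to be at hand.

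The ETS core, with the letters CCGGAA or TTCCGG, had overlapping intervals at ChIP-only and shared summits. It stood in 33.3% (23.7 to 44.1) of windows with a distal ChIP-only summit and in 28.8% (22.6 to 35.6) of windows with a distal shared summit, against 10.8% of windows over 1 kb from gene ends. The GC box, GGGCGG or CCGCCC, stood in 52.2% (41.4 to 62.9), 68.7% (61.7 to 75.1) and 29.5% of the same sets. The windows also differed in base composition. The median count of CpG dinucleotides was 21.5 in windows with a distal ChIP-only summit and 22 with a distal shared summit, but 6 in windows over 1 kb from gene ends. Windows with any distal summit were therefore richer in CpG than the background windows, and its part in the motif shares was not tested. TGCGGT itself holds a CpG; TGTGGT does not. Some windows overlap each other.

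**Figure D1:**
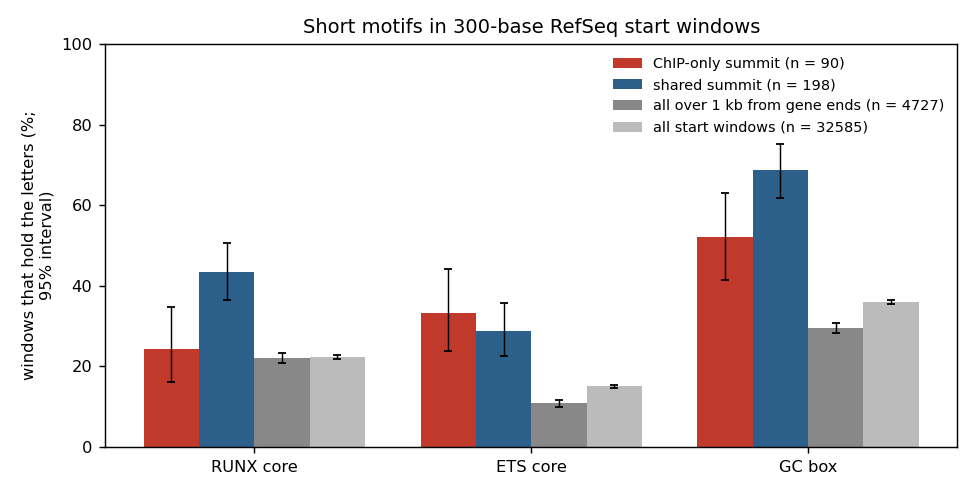
Share of 300-base RefSeq start windows that hold the RUNX core (TGTGGT or TGCGGT), the ETS core or the GC box on either strand, for windows with a distal ChIP-only summit (red), a distal shared summit (blue), all windows over 1 kb from gene ends and all windows (greys); bars show percent, lines the exact 95% interval. The RUNX core stands in 24.4% of the red and 43.4% of the blue windows, while the ETS core is at 33.3% and 28.8%.

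Distal ChIP-only peaks were mostly low and narrow. The pileup counts the fragments over a peak's summit. It had a median of 9 (quartiles 8 and 11, highest 77) in distal ChIP-only peaks and of 14 (quartiles 10 and 20) in distal shared peaks. The lowest pileup of any ChIP peak was 7. In all, 67% of distal ChIP-only peaks had a pileup of 10 or less, against 25.4% of distal shared peaks. Only 31.1% had a q of 1e-05 or less, the limit used for the CUT&RUN list, against 74.3% of distal shared peaks. By rank, 79.7% stood in the weaker 0.5 of the ChIP list and 22 peaks (0.831%) in its best 0.1. ChIP-only peaks at gene ends, 1707 in number, had a like median pileup of 10. Their median width was 199 bp (195 to 205), and 35.6% (33.3 to 37.9) of them had a q of 1e-05 or less. Low pileup and weak q were thus not particular to distal ChIP-only peaks. The lowest CUT&RUN pileup was 8, at a stricter limit and with no control, so a ChIP-only peak may still have CUT&RUN fragments below that limit.

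The share of peaks without a CUT&RUN partner was lower at each higher range of pileup. Among peaks away from gene ends, 77.2% (72.8 to 81.2) of those with a pileup of 7 were ChIP-only. At a pileup of 10 the share was 44.8% (41.3 to 48.4), at 13 to 15 it was 21.7% (19.2 to 24.3), and over 30 it was 5.46% (3.6 to 7.9). At equal pileup, distal ChIP-only peaks were also narrower, except at a pileup of 7, where the medians were 140 and 140.5 bp. At a pileup of 10 the median width was 181.5 bp for ChIP-only and 207 bp for shared peaks. At 13 to 15 the medians were 243 and 292.5 bp. Over all pileups, the median width was 174 bp (171 to 177) in distal ChIP-only peaks and 300 bp (295 to 305) in distal shared peaks.

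The few high peaks among them stood mostly where the expected background was high. MACS2 compares each pileup with an expected background, which was at the same floor of 1.12 fragments for 94.7% of distal ChIP-only peaks. A high background was taken as a pileup divided by fold of over 1.5 times the list's median. This held for 61 distal ChIP-only peaks (2.3%, 1.77 to 2.95) and 86 distal shared peaks (1.76%, 1.41 to 2.17), so the overall shares were close. Of the 26 distal ChIP-only peaks with a pileup over 30, however, 24 (92.3%) had a high background, against 70 of 450 distal shared peaks. At pileups of 21 to 30 the counts were 13 of 51 and 10 of 752. High background raises the pileup itself, so pileup and background are not independent.

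**Figure D2:**
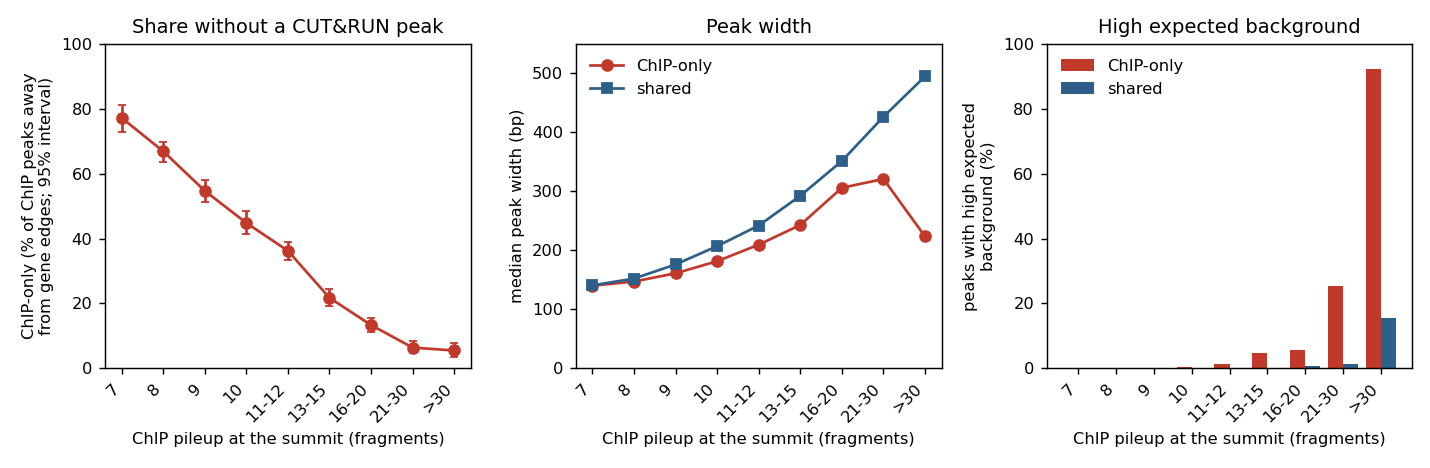
ChIP peaks away from gene ends by ChIP pileup: the percent that are ChIP-only with its exact 95% interval (left), the median width in bp (middle) and the percent with high expected background (right), for ChIP-only (red) and shared peaks (blue). The ChIP-only share runs down from 77.2% at a pileup of 7 to 5.46% over 30, and 24 of the 26 highest ChIP-only peaks have a high background.

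The best ranked distal ChIP-only peaks lay at neural genes and between genes. The first, rank 56, had its summit at chromosome 1, 100180221, inside Cntnap5b, a gene of a neural adhesion protein, with a pileup of 77 (60.8 to 96.2). The second, rank 82, lay at chromosome 5, 83795755, 259 kb from Epha5, an ephrin receptor gene, with a pileup of 68 (52.8 to 86.2). Both had a high background, with 3.88 and 3.13 expected fragments against a list median of 1.12, and CUT&RUN peaks were 559 and 823 kb away. Of the first 10, 6 had a high background. Others of these lay near Neto1, Rorb and Slc4a4.

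With high background left out, the 10 best ranked peaks had pileups of 26 to 43, and Tnip3 and Cytip were the immune genes near them. The first was at chromosome 18, 56303515, 84 kb from Gramd3, with a pileup of 43 (31.1 to 57.9). The next lay inside Sag, the gene of retinal arrestin, at chromosome 1, 87829946, with a pileup of 33 (22.7 to 46.3), only 1.11 kb from a CUT&RUN peak. At chromosome 6, 65647934, a peak with a pileup of 28 (18.6 to 40.5) lay 13.9 kb from Tnip3, whose product binds the NF-κB inhibitor A20. At chromosome 2, 58155891, a peak inside Cytip, a gene of leukocyte adhesion control, had a pileup of 26 (17 to 38.1) and a CUT&RUN peak 1.08 kb away. Others lay inside Dnah17, Magi2, Sirt3 and the non-coding A930011G23Rik, 4.21 kb from Capn13, and 898 kb from Nxph1, with pileups of 26 to 30.

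Distal ChIP-only peaks ranged from close neighbours of CUT&RUN peaks to fully isolated sites. The nearest CUT&RUN peak lay a median of 13847 bp away (quartiles 2454 and 70892 bp). It was within 500 bp for 226 peaks (8.53%, 7.5 to 9.66), within 10 kb for 1181 (44.6%, 42.7 to 46.5) and over 1 Mb away for 101 (3.81%). Among the 226, the nearest CUT&RUN peak overlapped another ChIP peak in 109 cases (48.2%, 41.6 to 55) and none in 117. In the 117 cases the CUT&RUN pileup had a median of 18, and in the 109 cases of 34, against 25 over the CUT&RUN list. At Stag2 and Pnkd the ChIP-only peak stopped 3 bp from a CUT&RUN peak, while near Gm40603 and Rfx1 a shared peak overlapped one by 3 bp, so the rule parted peaks that differed by a few bases. The nearest summits to the 1 kb limit were 1002 bp from a gene end, near Agap2, for those taken and 998 bp, near Ypel5 among others, for those left out.

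Isolated peaks differed from neighbours in where they lay. Of the 567 peaks over 100 kb from any CUT&RUN peak, 42.3% (38.2 to 46.5) were inside a gene, 30.9% lay over 100 kb from every protein-coding gene, and the median width was 154 bp. Of the 358 peaks at 500 bp to 2 kb from a CUT&RUN peak, 74.9% (70 to 79.3) were inside a gene, 2.51% lay over 100 kb from protein-coding genes, and the median width was 187.5 bp. Median pileups were alike, at 9 and 9.5. A q of 1e-05 or less was reached by 24.3% (20.9 to 28.1) of the isolated peaks and 36.3% (31.3 to 41.5) of the neighbours. High background was seen in 28 isolated peaks (4.94%) and in 3 neighbours (0.838%). The 226 peaks within 500 bp of a CUT&RUN peak were like the neighbours in position, with 68.1% (61.6 to 74.2) inside a gene, but 27.4% (21.7 to 33.7) had a q of 1e-05 or less, an interval that overlapped that of the isolated peaks. Of these 226, 6 (2.65%) had a high background. At 2 to 10 kb from a CUT&RUN peak, 70% (66.2 to 73.7) of 597 peaks were inside a gene. At 10 to 100 kb it was 66.8% (63.6 to 69.9) of 901 peaks, so most of the fall in this share lay beyond 100 kb.

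**Figure D3:**
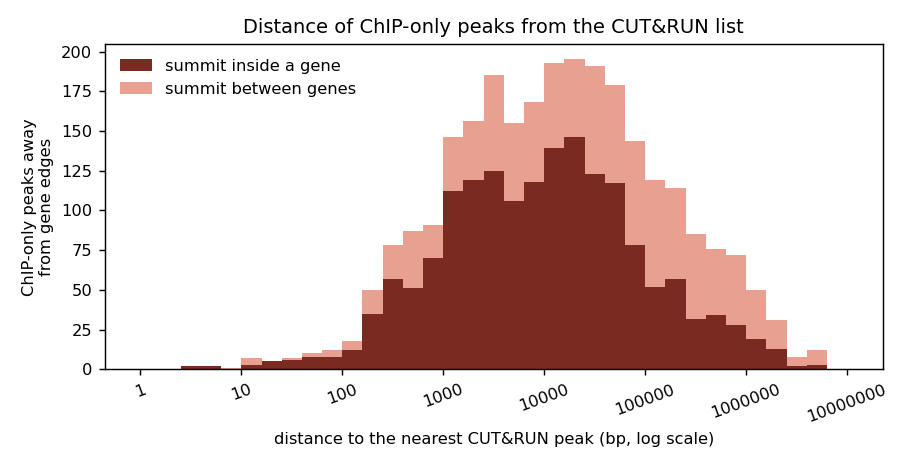
Distance in bp (log scale) from each of the 2649 distal ChIP-only peaks to the nearest CUT&RUN peak, stacked by whether the summit lies inside a gene (dark) or between genes (light). The median is 13847 bp, and the peaks over 100 kb away are the ones mostly between genes.

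Most distal ChIP-only peaks lay inside genes, though a somewhat smaller share than of distal shared peaks. The summit was inside a gene in 63.5% (61.6 to 65.3) of cases, against 68.5% (67.2 to 69.8) of distal shared peaks. It was in a protein-coding gene in 56.4% (54.5 to 58.3) and, where in none, in a long non-coding RNA gene in 6.19%. In distal shared peaks these shares were 60.9% and 7.26%. Over 100 kb from every protein-coding gene lay 9.78% (8.67 to 11) of distal ChIP-only peaks and 5.7% (5.06 to 6.39) of distal shared peaks. For 1155 distal ChIP-only summits in protein-coding genes the strand was at hand. Of these, 37.1% (34.3 to 39.9) lay in the first of 4 equal parts of the gene from its start and 16.1% (14 to 18.4) in the last. Distal shared summits gave 34.9% (33 to 36.8) and 15.5% (14.1 to 17) of 2376, and these intervals overlapped those of ChIP-only peaks. The gene around the summit had a median length of 77.3 kb for ChIP-only and 79 kb for shared peaks.

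No chromosome stood far out. Distal ChIP-only peaks were 30.6% to 40.9% of the peaks away from gene ends on each chromosome, lowest on chromosome 9 and highest on chromosome 18. The 95% intervals of these 2, 26.2 to 35.2 and 34.3 to 47.8, overlapped. The X chromosome had 34 such peaks and a share of 39.1% (28.8 to 50.1).

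Some genes gathered many distal ChIP-only peaks. Within the span of a protein-coding gene plus 10 kb on each side, 1842 of 21631 genes (8.52%) had at least 1, 303 had 2 or more and 90 had 3 or more. Genes with such a peak were longer, with a median of 37.9 kb against 17.3 kb for all protein-coding genes. By length, 3.73% of genes up to 10 kb, 12.1% of genes of 30 to 100 kb and 18.7% of longer genes had one. Of the 1842 genes, 760 (41.3%, 39 to 43.5) had no shared peak in the same window.

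Sfi1, the gene of a centrin-binding protein of the mitotic spindle, had the most, with 13. Of these, 9 lay within 14 kb on chromosome 11, from 3184382 to 3198339, with pileups of 42 to 57. The expected background behind these 9 was 16.2 to 25.8 fragments, up to 23 times the list's median expected background, and all 13 had a high background. Another stretch of 9 peaks lay on chromosome 17 from 3012417 to 3032381, with pileups of 8 to 15 and a high background at 1 of them; its nearest protein-coding gene was Scaf8.

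Arhgef3, which encodes an exchange factor for RhoA, had 10 distal ChIP-only peaks with pileups of 8 to 15, between 78.3 and 288 kb from the start of the 289 kb gene, together with 7 distal shared peaks. The gaps to the nearest CUT&RUN peak were 19 bp to 4.18 kb. Bach2, a repressor that holds back effector differentiation, had 7, with pileups of 9 to 13, beside 12 distal shared peaks, and 4 of the 7 lay within 6.17 kb. Lef1, a transcription factor of naive and memory T cells, had 6, with pileups of 8 to 11, beside 8 distal shared peaks. Hivep2, a zinc-finger gene, had 7, with pileups of 8 to 11, and 2 distal shared peaks. Fam107b had 6 beside 5 shared. Dock10, an exchange factor gene of the DOCK family, Ccdc88c and Spata13 each had 5, beside 4, 3 and 1 distal shared peaks. Of those counted for Spata13, 1 lay inside the neighbouring C1qtnf9. None of the peaks at these 8 genes had a high background. Asap1, Wwox, Foxp1 and Fli1 also had 5 each, and their best peaks ranked lower.

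Nr3c1, the gene of the glucocorticoid receptor, had 6 distal ChIP-only peaks and no other ChIP peak in its window. Of these, 3 lay at 39488678, 39489151 and 39489495 on chromosome 18, with pileups of 9, 9 and 11, and 2 lay at 39499351 and 39499808, with pileups of 7 and 17. The nearest CUT&RUN peak was 1.96 to 8.04 kb from these 5 and 84.3 kb from the other one, 3.35 kb outside the gene. Mid1 and Bri3 had 4 each and no shared peak; of a group of 3 peaks at one end of Mid1, 2 had a high background. Mcl1, a survival gene of the BCL2 family, had 3 and no shared peak, the best with a pileup of 9 (4.12 to 17.1).

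**Figure D4:**
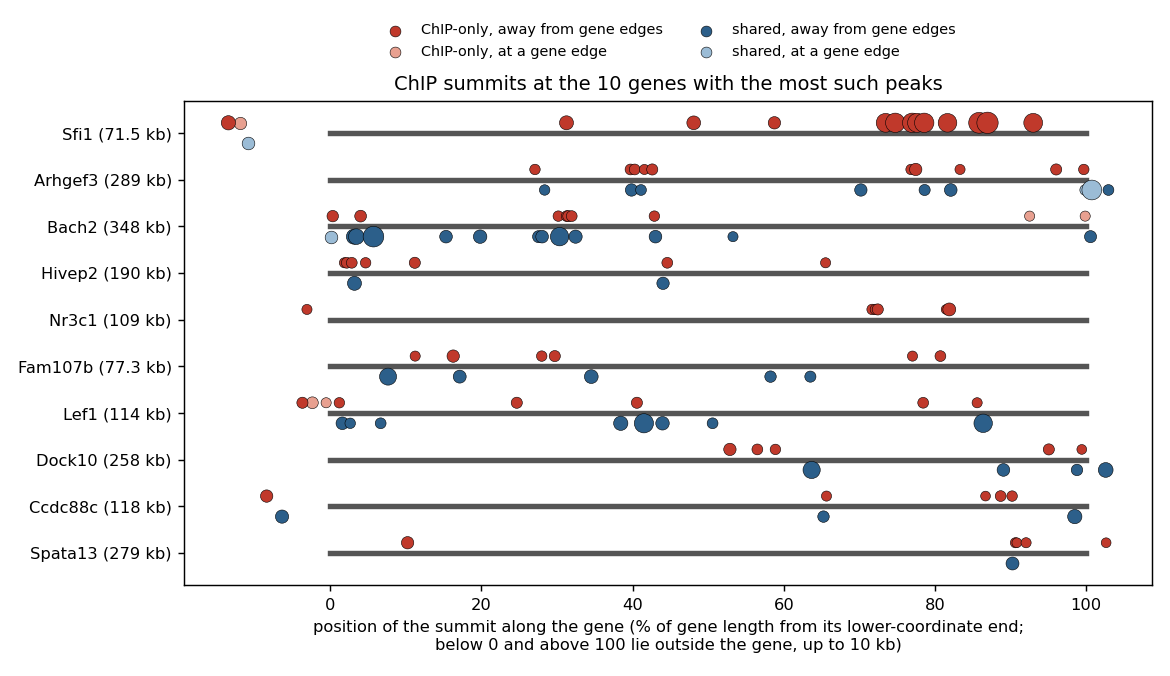
ChIP summits at the 10 protein-coding genes with the most distal ChIP-only peaks (ties at 5 peaks broken by best rank), along the length of each gene (percent of gene length, from the lower-coordinate end, with 10 kb added on each side); ChIP-only summits are drawn above the gene and shared summits below, and larger dots have higher pileups (capped at 60). Sfi1 stands out by its large dots in a short stretch, and Nr3c1 by having no shared summit.

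Many T cell genes had a distal ChIP-only peak beside shared peaks. The lists were chosen with earlier results of these data known, and a count here has no test. The share of all protein-coding genes with a shared peak is not given here, so the list counts of shared peaks have no background. Among 28 transcription factor genes of naive and memory T cells, 18 (64.3%, 44.1 to 81.4) had such a peak within 10 kb, against 8.52% of all protein-coding genes, and 22 had a shared peak. The median gene of this list was 84.9 kb long, and in its length class 12.1% of genes had one. Several of its genes, such as Bach2, Foxp1 and Ets1, were over 100 kb, and 18.7% of all genes of that length had one. Bcl6, a repressor of follicular helper and memory fate, had a peak at chromosome 16, 23984440 with a pileup of 16 (9.15 to 26) and no shared peak; a CUT&RUN peak lay 357 bp away. Gata3, which directs T cell development, had 2, the best with a pileup of 16 and no CUT&RUN peak for 7.5 kb. Satb1, a chromatin organiser, and Ets1 had best pileups of 14. Foxp1, which keeps T cells quiescent, and Fli1 had 5 peaks each, and Tcf7, which encodes TCF1, had 4 within 6.13 kb with pileups of 7 to 9.

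T cell identity and receptor signalling genes had a distal ChIP-only peak in 13 of 28 cases (46.4%, 27.5 to 66.1), against 8.52% of all genes and 12.1% of genes of 30 to 100 kb, where the list's median of 47.7 kb lies, and 25 had a shared peak. Nfatc2, a transcription factor of calcium signalling, had a peak at chromosome 2, 168472963 with a pileup of 17 (9.9 to 27.2), 3.45 kb outside the gene and 42.9 kb from a CUT&RUN peak, and no shared peak. Cd28, the costimulatory receptor gene, had 4 within 3.04 kb inside the gene, with pileups of 8 to 12, beside 4 distal shared peaks. Cd6 had 3, the best with a pileup of 14, 659 bp from a CUT&RUN peak. Dgkz, the gene of a kinase that removes diacylglycerol, had 1 with a pileup of 12. Prkcq and Cblb had 3 each.

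Cytokine receptor and signalling genes had one in 12 of 35 cases (34.3%, 19.1 to 52.2), against 8.52% of all genes and 12.1% in the length class of the list's median gene (31.1 kb). Tgfbr2, a chain of the TGF-β receptor, led with a pileup of 18 (10.7 to 28.4) inside the gene, 1.74 kb from a CUT&RUN peak. Stat4 and Il6st had 2 each, with best pileups of 14 and 13. The peak counted for Jak3, with a pileup of 15, lay inside the neighbouring gene B3gnt3. Chemokine receptor and integrin genes had one in 8 of 23 cases (34.8%, 16.4 to 57.3), with a median gene of 16.2 kb and 7.6% in that length class. Ccr7, the homing receptor for lymph nodes, had 3, the best at chromosome 11, 99142999 with a pileup of 15 (8.4 to 24.7), 1.2 kb outside the gene. Selplg, Cxcr4 and Itgae, the gene of the integrin chain of resident T cells, had best pileups of 15, 13 and 13.

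Of 20 CD8 lineage and cytotoxic genes, 3 (15%, 3.21 to 37.9) had a distal ChIP-only peak, while 13 had a shared peak. The interval included the 8.52% of all genes. It also included the 3.73% of genes up to 10 kb, the length class of the list's median gene (7.48 kb). Eomes, a T-box factor of memory and cytotoxic cells, had a peak at chromosome 9, 118488393 with a pileup of 17 (9.9 to 27.2), inside the non-coding Gm33460 and 2.26 kb from Eomes, with no CUT&RUN peak for 82.5 kb and no shared peak. Cd8b1 had 3, the best with a pileup of 12 (6.2 to 21) at chromosome 6, 71345095, 7.6 kb outside the gene, and it belonged to a group of 4 within 14.3 kb. Klrd1, a killer lectin-like receptor gene, had 1 with a pileup of 10, and the same peak was counted for Klre1. The RUNX genes and their corepressors had none within 10 kb (0 of 11, 0% to 28.5%), and this interval also included the 8.52%. Of the 11, 10 had a shared peak.

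Inhibitory and costimulatory receptor genes had one in 5 of 18 cases (27.8%, 9.69 to 53.5), against 8.52% of all genes, with pileups of 12 at Cd244a, 10 at Tigit (inside Zbtb20) and 8 at Slamf6 and Tnfrsf9. Apoptosis and survival genes had one in 5 of 16 cases (31.2%, 11 to 58.7), with a pileup of 11 at Bcl2l1, which encodes BCL-XL, and at Birc2. The CD4 lineage and helper list had 3 of 15 (20%, 4.33 to 48.1), at Rora, Maf and Il1rl1. Chromatin and DNA methylation genes had one in 5 of 21 cases (23.8%, 8.22 to 47.2), led by Arid1b, a subunit gene of BAF remodelling complexes, with 4 peaks and a best pileup of 10. Housekeeping genes had one in 4 of 18 cases (22.2%, 6.41 to 47.6), led by Ywhaz with a pileup of 16. The intervals of the CD4, chromatin and housekeeping lists included 8.52%. By length of the median gene, the CD4 list (11.9 kb) compares with 7.6% and the chromatin list (77.8 kb) with 12.1%, both within their intervals. The median housekeeping gene was 5.68 kb long, and the 3.73% of genes up to 10 kb lay below that list's interval.

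Among marker genes of other blood cells and of liver, 3 had such a peak. The B cell list had 1 of 15, where the peak counted for Cd79a lay inside the neighbouring Arhgef1. The NK cell list had 2 of 10, at Klrb1c and Klre1. The myeloid (0 of 15), dendritic cell (0 of 12), erythroid (0 of 13) and hepatocyte (0 of 15) lists had none, and the upper bounds of these shares were 21.8%, 26.5%, 24.7% and 21.8%. At these list sizes a share equal to the 8.52% of all genes was within every one of these intervals.

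Neuronal adhesion and synapse genes had distal ChIP-only peaks mostly without shared ones. Of 37 such genes, 12 (32.4%, 18 to 49.8) had a distal ChIP-only peak, but 2 had a shared peak, and 11 of the 12 had none. Over all protein-coding genes with a distal ChIP-only peak, 41.3% had no shared peak. These genes are very long, with a median of 1098 kb, and 18.7% of all protein-coding genes over 100 kb had a distal ChIP-only peak, a share within the list's interval. Nrxn3, a presynaptic adhesion gene, had a wide peak of 1743 bp with a pileup of 22 (13.8 to 33.3), 189 kb from a CUT&RUN peak. Cdh18, a cadherin gene, had a peak of 1086 bp with a pileup of 13 and no CUT&RUN peak for 1954 kb. Csmd1 had 2, the best with a pileup of 11. The peak of Ctnna3, with a pileup of 10, lay 5.51 kb outside the gene. All 4 stood at the background floor.

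Under the stricter limit of 1e-05 for q in ChIP, 3.21% of all protein-coding genes had a distal ChIP-only peak. The counts were then 12 of 28 for naive and memory transcription factors, 7 of 28 for receptor signalling, 6 of 35 for cytokine receptors, 6 of 23 for chemokine receptors and integrins and 3 of 37 for neuronal adhesion. The inhibitory receptor, chromatin, NK cell and B cell lists were at 0, the CD4 list had 1 of 15, the CD8 list 2 of 20, the apoptosis list 2 of 16 and the housekeeping list 3 of 18. With gene spans alone, the inhibitory receptor list fell to 1 of 18 and the CD8 list to 1 of 20, and 5.57% of all genes had one. Within 50 kb, the CD8 list had 9 of 20, the cytokine list 22 of 35 and the RUNX list 4 of 11, against 18.5% of all genes.

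**Figure D5:**
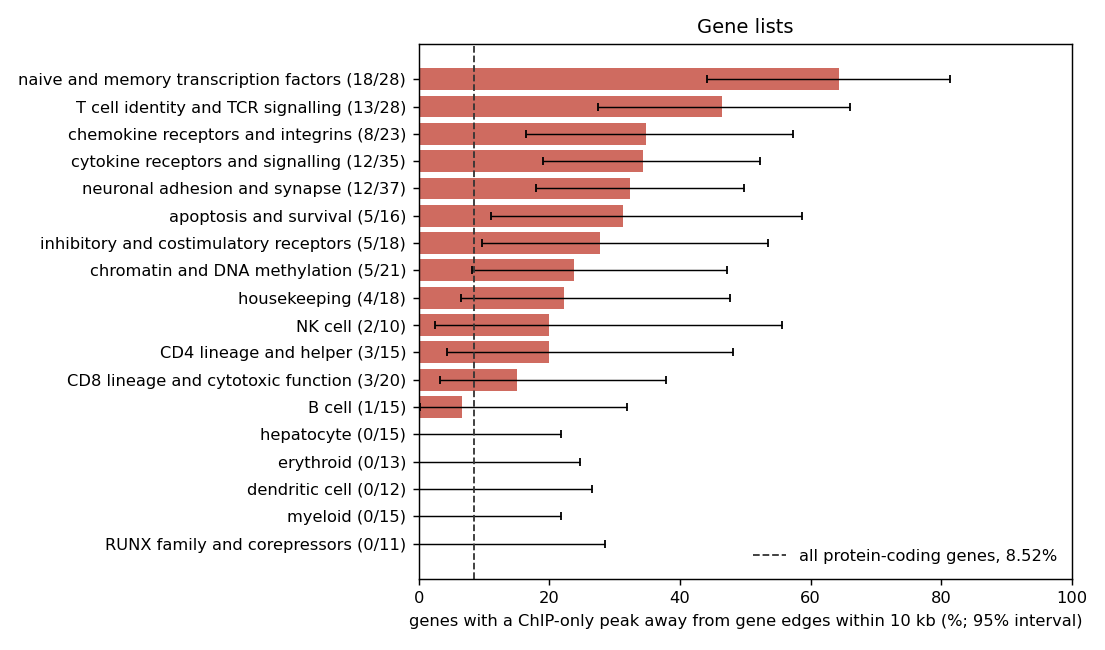
Percent of the genes of each list with a distal ChIP-only peak in the gene or within 10 kb of it, with exact 95% intervals; the numbers beside each name are genes with a peak and genes in the list, and the dashed line is the 8.52% of all protein-coding genes. Naive and memory transcription factors are highest at 18 of 28, and 5 lists, among them the RUNX family, are at 0.

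Most distal ChIP-only peaks lay apart from each other, and a minority formed groups. A shared ChIP peak lay within 10 kb of 32.8% (31.1 to 34.7) of them, and of 33.3% (31 to 35.6) of ChIP-only peaks at gene ends. Of 2629 pairs of neighbours on a chromosome, 238 had summits within 10 kb and 71 within 1 kb, and the median distance was 362 kb. Chaining those within 10 kb gave 176 groups with 414 peaks, 36 of them with 3 peaks or more. Among the groups of 4 were those in Cd28, Tcf7, Bach2, Hivep2, Arhgef3 and Fam107b. Others were at Cd8b1, Ccr7 and Gimap4, a GTPase gene of lymphocytes. All of these groups stood at the background floor of 1.12, and their pileups ran from 7 to 15. Groups of 3 lay at Dock10, Aim2, Arid5b, Fli1, Junb and S1pr1, the gene of the receptor by which T cells leave lymph nodes, among others.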

How the data were processed

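The submitters' processing notes name Bowtie, MACS2 and the build mm10. How Bowtie was run is not stated in what was used here. The file headers show that MACS2 (2.1.1.20160309) treated each library alone, with at most 1 fragment per position. For ChIP the limit was a q of 0.05 and the whole cell extract was the control; for CUT&RUN it was 1e-05 with no control, and the alignment's name refers to nucleosome-free fragments. Per the file headers, MACS2 read 48285251 ChIP and 17896991 CUT&RUN fragments, of which shares of 0.80 and 0.21 were redundant. The deposited lists give, for each peak, positions in mm10, the pileup (a coverage signal), −log10 p and −log10 q, and a fold (a ratio of pileup to expected background, with 1 added to each, which gave the same background for most peaks). These are the authors' own values, used to describe, rank and filter within a list.

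Peaks were ranked by q, then pileup. Gene spans came from RefSeq (GRCm38.p6, 49554 genes on the chromosomes used). All 350 list entries (349 distinct genes, 18 lists) matched. Strand came from the RefSeq start windows. The count of overlapping peaks was checked with bedtools 2.31.1, and distances were tested on simulated data. Shares have Clopper-Pearson intervals, medians order-statistic intervals and pileups Poisson intervals (95%; scipy 1.17.1). The peaks described and the gene lists were chosen with earlier results of these data known. Named were the 10 best ranked peaks, the 10 best without high background, the 10 genes with most peaks, up to 4 genes a list by rank, and peaks at the limits of the rule; other genes were named after their values were seen. Some items that the rule names are not reported here. Alternatives changed the overlap, the distance and kind of gene ends, the ChIP q, the background and the gene window. Reads, and so CUT&RUN signal below its threshold, were not analysed here.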

Additional observations from a re-analysis of the deposited data

Results flagged for a closer look

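Chromosome Y and unplaced contigs were outside the rule and enter no comparison. They held 89 ChIP peaks that overlapped no CUT&RUN peak, 29 on Y and 60 on contigs, with a median pileup of 18 (7 to 110). All 29 ChIP peaks on Y lacked an overlap, and the labels do not give the sex of the mice. They were picked out because a signal appeared in data that the comparisons do not use; a count of 0 allows up to 0.0228% of the list (3 of 13166 peaks). Each assay had 1 library, and no comparison among libraries was made.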

How the results depend on the processing

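With CUT&RUN peaks within 500 bp also counted as shared, 39.4% of peaks had a CUT&RUN peak within 10 kb and 7.95% of protein-coding genes had a distal ChIP-only peak. At over 2 kb from gene ends, 61.6% were inside genes, 41.2% had a CUT&RUN peak within 10 kb and 6.52% of genes had one. With ends of protein-coding genes only, 9.36% of genes had one. At a ChIP q of 1e-05 or less, 825 peaks were left, with a median width of 237 bp; 49.7% had a CUT&RUN peak within 10 kb, 3.21% of genes had one, and 42 of the 349 list genes did, against 91. Fewer peaks are counted by construction. TGTGGT alone, added after seeing the data, stood in 15.6% of the start windows. The other values for these results stayed within their intervals, or for counts within 1.5 times. Single lists stayed within 1.5 times in 13 of 18 cases with gene spans alone, 10 of 18 within 50 kb and 9 of 18 at the stricter q. No paired analysis was possible because each assay had 1 library. Pileups of 7 to 10 fragments limit most single peaks.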
